A study of Homo sapiens with 9 samples.

Results

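The libraries described here are the 3 of 9 that came from FaDu cells given only the vehicle, dimethyl sulfoxide (DMSO). They were chosen by their label and not by any measured value. FaDu is an established line from a squamous cell carcinoma of the hypopharynx, and it was grown in DMEM medium with fetal bovine serum. The other 6 libraries came from the same line given one of the selective CDK7 inhibitors, samuraciclib or YKL-5-124, each at 250 nM in 3 cultures. They are not used here, and no treated library is compared with the vehicle. Exposure lasted 48 h according to the treatment protocol and 72 h according to the series design, so the vehicle cells had one of these times in DMSO. By the methods of the study the cultures were biological replicates and the cells had not reached confluence when RNA was taken. As a model the samples are 1 cell line in 1 growth condition.

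Squamous epithelium of the pharynx is a layered tissue. Its basal cells divide, hold the paired keratins KRT5 and KRT14 and sit on a basement membrane through hemidesmosomes, while the cells above leave the cell cycle and build a cross-linked protein envelope. TP63 is the transcription factor known to keep the basal identity, and carcinomas of this tissue are known for altered CDKN2A, CCND1, EGFR, PIK3CA, NOTCH1 and FAT1. CDK7, the target of the study, pairs with cyclin H (CCNH) and MNAT1 to form the CDK-activating kinase, which acts on the cell cycle kinases and, within the general factor TFIIH, on RNA polymerase II.

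The value given for a gene is its read count per 1000000 counts of the library (CPM) divided by the length of its gene model in kilobases (CPM per kb), so that genes of different length can be set side by side. Values are given for DMSO 1, DMSO 2 and DMSO 3 in that order, or as the mean ± SD with n = 3. A gene was counted as measured at 1 CPM or more in every library, as undetected with no count in any library, and as trace otherwise. No p-value is given, since an exact paired permutation test over 3 libraries cannot go below 0.25. Instead it is said whether the library values of 2 genes overlap. Where the level of a gene is given as a multiple of another, it is the geometric mean of the ratios within the 3 libraries.

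The libraries held 18096180, 19630267 and 28018126 counts. A count of 0 in all of them allows up to 0.0456 CPM, from 3 counts over the 3 libraries together, and this limit covers counting error only. Of 19938 protein-coding genes of the nuclear genome 11565 were measured (58.0%), 4529 were at trace level and 3844 were undetected (19.3%), and the median over all of them was 1.02 CPM per kb. The measured genes had a median of 6.07 CPM per kb, with the middle 90% between 0.420 and 65.3. The number of measured genes in a list of protein-coding genes is to be read against the share of 58.0%. DMSO 3 stood apart in a few RNAs. The signal recognition particle RNA RN7SL2 was at 672, 767 and 56.2 CPM. Other genes on the same strand cover 100% of the exonic bases of RN7SL2, so its level is uncertain. Mitochondrially encoded genes, 2.92 ± 0.488% of the counts, were highest in DMSO 3 at 3.45%. The logarithms of the CPM of measured genes had a Pearson correlation between 0.996 and 0.997 for each pair of libraries, which is across genes and not across samples.

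**Figure D1:**
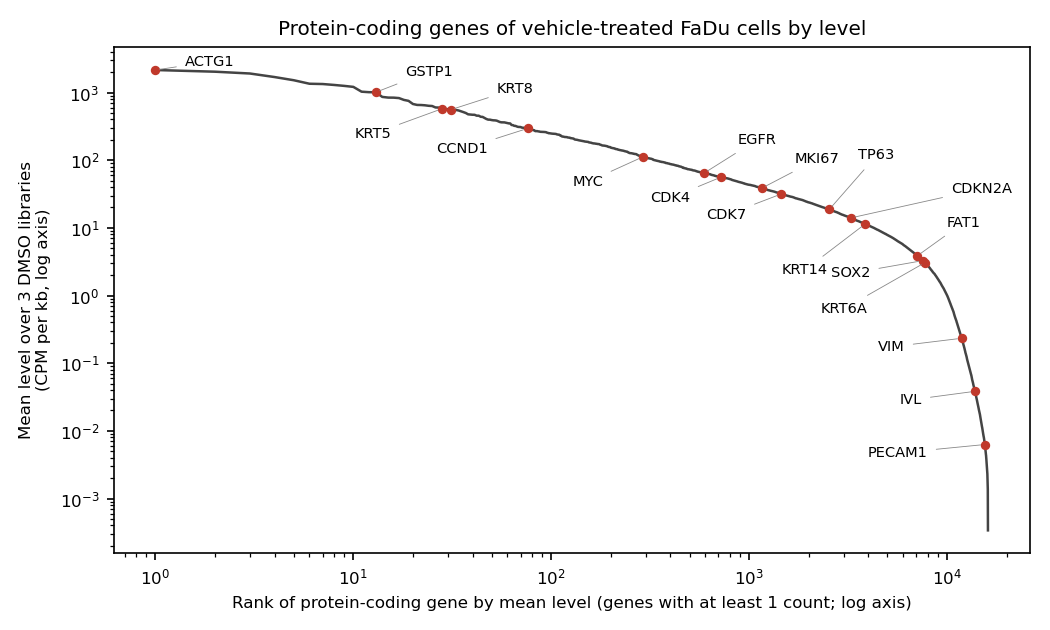
Nuclear protein-coding genes with at least 1 count, ordered by their mean level over the 3 DMSO libraries, with the rank on a log axis and the level (CPM per kb) on a log axis. Red points mark named genes, from ACTG1 at 2151 to PECAM1 at 0.00628 CPM per kb.

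Promoters of 4 genes are shown before the levels, because they stand for the kinds of gene that the levels separate. KRT5 is among the most abundant lineage genes, EGFR is an abundant receptor, SMAD4 had no count, and IVL (involucrin, a protein of the cornified envelope) was near 0. The sequences are those of RefSeq on GRCh38.p14, from 250 bases before to 50 bases after the start site, 5′ to 3′ on the strand of the gene. Capitals mark each CG pair, the site of DNA methylation, and the TATA box motif TATAAA. They lie at chr12:52520345-52520644 on the minus strand (KRT5), chr7:55018767-55019066 on the plus strand (EGFR), chr18:51029963-51030262 on the plus strand (SMAD4) and chr1:152908296-152908595 on the plus strand (IVL).
KRT5: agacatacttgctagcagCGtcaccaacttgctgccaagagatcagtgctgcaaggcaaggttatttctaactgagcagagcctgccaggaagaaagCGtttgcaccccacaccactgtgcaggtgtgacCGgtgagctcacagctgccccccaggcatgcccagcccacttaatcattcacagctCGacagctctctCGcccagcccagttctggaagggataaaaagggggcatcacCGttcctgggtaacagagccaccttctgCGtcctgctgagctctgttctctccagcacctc
EGFR: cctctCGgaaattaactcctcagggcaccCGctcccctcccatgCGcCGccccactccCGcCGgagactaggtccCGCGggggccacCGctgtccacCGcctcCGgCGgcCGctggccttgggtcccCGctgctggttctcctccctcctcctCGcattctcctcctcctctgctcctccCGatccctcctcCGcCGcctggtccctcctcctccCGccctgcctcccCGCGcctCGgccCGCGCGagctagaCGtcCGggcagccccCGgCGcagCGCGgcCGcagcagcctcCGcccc
SMAD4: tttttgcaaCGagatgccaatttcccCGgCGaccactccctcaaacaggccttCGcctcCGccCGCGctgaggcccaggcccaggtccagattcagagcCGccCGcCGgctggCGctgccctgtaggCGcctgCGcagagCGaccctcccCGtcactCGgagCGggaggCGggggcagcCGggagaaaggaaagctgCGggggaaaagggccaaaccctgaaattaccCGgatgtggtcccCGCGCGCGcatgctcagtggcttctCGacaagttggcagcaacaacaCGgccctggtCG
IVL: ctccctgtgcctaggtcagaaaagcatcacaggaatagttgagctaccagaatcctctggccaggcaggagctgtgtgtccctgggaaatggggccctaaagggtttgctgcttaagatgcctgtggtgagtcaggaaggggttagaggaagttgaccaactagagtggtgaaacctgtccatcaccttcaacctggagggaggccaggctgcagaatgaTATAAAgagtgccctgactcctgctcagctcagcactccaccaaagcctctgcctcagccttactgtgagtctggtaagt

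The KRT5 promoter holds 7 CG pairs, that of EGFR 33, that of SMAD4 28 and that of IVL 0. IVL has the only TATAAA of these windows, with its first base 30 bases before the start site. Over the whole table, 15336 of the 19938 protein-coding genes (76.9%) could be matched to a promoter. Promoters with at least 15 CG pairs in 300 bases made up 84.6% of those of the measured genes, 45.5% of those of trace genes and 26.1% of those of undetected genes. The motif TATAAA or TATATA on the gene's strand ran the other way, with 4.73%, 13.4% and 20.8%. The 100 most abundant nuclear genes per kb had a CG-rich promoter in 87.2% and a TATA motif in 21.8% of the 78 with a known promoter, and the motif is in 10.7% of all 27305 promoters of the table. A match is a description of letters and was not tested as a binding site. KRT5 and KRT8, with 7 and 2 CG pairs, lay among the CG-poor minority of the measured genes.

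The highest levels per kb were those of mitochondrially encoded mRNAs, with MT-CO2 at 4376 ± 795, and these are left out of the order of protein-coding genes given here. Among nuclear protein-coding genes the most abundant transcripts per kb included those of actins, ribosomal proteins, ferritins and a translation factor. The cytoplasmic actin ACTG1 led the nuclear genes with 2146, 2120.2 and 2188 CPM per kb. It was followed by the ribosomal protein gene RPS2 (2031 ± 101), the ferritin heavy chain FTH1 (1911 ± 334), the elongation factor EEF1A1 (1693 ± 91.5) and the ferritin light chain FTL (1519 ± 56.3). FTH1 was the least even of these, with 1824, 1628 and 2279.7, highest in DMSO 3. The actin-binding peptide TMSB10 (1349), the glycolytic enzyme GAPDH (1335), the RNA-binding protein YBX1 (1294), the chaperone HSP90AB1 (1254) and the other cytoplasmic actin ACTB (1212) came next. The remaining 10 of the 20 highest nuclear genes were RPS12 (1029), the metallothionein MT2A (1012), the glutathione transferase GSTP1 (1010.4), RPLP0 (861), RPL41 (842), RPL7A (840.0), the mitochondrial ADP carrier SLC25A5 (828), the poly(A)-binding protein PABPC1 (778), profilin PFN1 (753) and the chromatin protein HMGA1 (677). These 20 genes took 5.91 to 6.16% of the counts. RPS2 shares 52.0% and FTH1 31.5% of its 75-base windows with transcripts of other genes, so their levels are uncertain. The 100 most abundant rows of the table by CPM held 19.5 ± 0.577% of the counts.

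The label of a squamous carcinoma line was checked against its markers. All 10 squamous markers were measured: KRT5, KRT14, KRT17, KRT6A, TP63, the desmosomal cadherin DSG3, the integrin chain ITGB4, the hemidesmosomal collagen COL17A1, the plakophilin PKP1 and TRIM29. Their summed level was 1278, 1277 and 1320 CPM per kb, most of it from KRT5 and KRT17, and their median was 15.1. The lowest squamous markers were KRT6A (3.07) and PKP1 (2.09). The 5 leukocyte markers summed to 1.23 to 1.61, all of it from CD14 (the endotoxin co-receptor), with the other 4, among them PTPRC, CD3E and SPI1, undetected. Endothelial markers summed to 4.67 to 4.93, nearly all from CDH5 at 4.71, 4.598 and 4.83, while PECAM1 (0.0142, 0 and 0.00460) and VWF (0.0851, 0.0686 and 0.0962) were close to 0. Fibroblast markers summed to 0.368 to 0.498, with COL1A1 at 0.484, 0.498 and 0.360 and DCN and LUM undetected. Neuroendocrine markers summed to 0.337 to 0.458, melanocyte markers to 0.521 to 0.821, muscle markers to at most 0.0290, and the liver and gut markers ALB and CDX2 to at most 0.0106. These panels are short, and fuller lists of the same cell types held higher genes: LCP1 at 15.3 among leukocyte, EGFL7 at 9.64 among endothelial and ENO2 at 7.19 among neural and neuroendocrine markers. All 3 lay above PKP1, KRT6A and DSG3. In RNA from a whole culture, a transcript at a low level in all cells and one at a high level in few cells cannot be told apart.

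**Figure D2:**
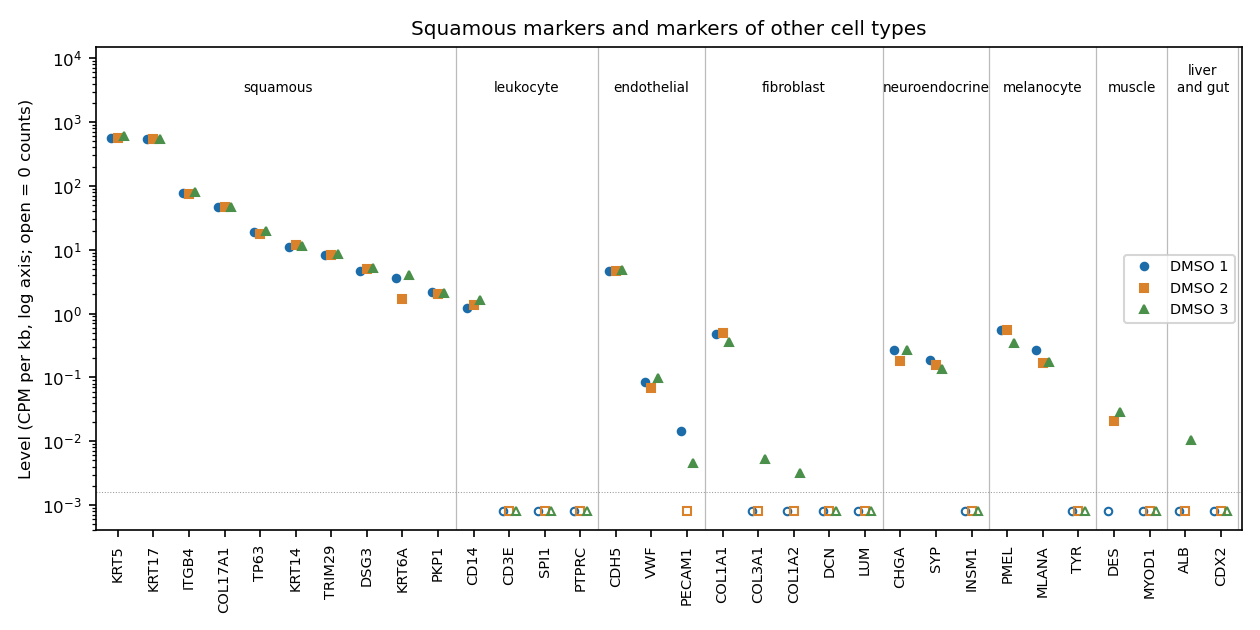
Level (CPM per kb, log axis) of marker genes in DMSO 1, DMSO 2 and DMSO 3, grouped by the cell type it marks; open symbols under the dotted line have 0 counts. All 10 squamous markers have counts in every library, while of the other genes plotted CDH5 (4.71) and CD14 (1.41) are the highest, above the lowest squamous marker in the case of CDH5.

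Keratins, the intermediate filament proteins of epithelia, showed a mixed picture of basal and simple epithelial types. Of 54 keratin genes 16 were measured, 18 were at trace level and 20 were undetected, with a median of 0.0202 CPM per kb. The basal keratin KRT5 (ENSG00000186081; chromosome 12, 52514575 to 52520687, minus strand, GRCh38) stood at 567, 563 and 595 CPM per kb, rank 28 of the nuclear protein-coding genes. KRT8, a keratin of simple epithelia, was at 554, 567 and 548, and its values overlapped those of KRT5. By the length of the longest transcript KRT8 (1338) stood above KRT5 (1102). KRT17, known from injured and basal-like epithelium, was at 538, 546 and 546, and KRT18, the partner of KRT8, at 516, 519 and 505. KRT8 was at 1.08 times the level of KRT18 and above it in all 3 libraries. KRT14, the usual partner of KRT5, was far lower at 10.97, 11.99 and 11.3. The ratio of KRT5 to KRT14 was 50.3, a log2 ratio of 5.65 ± 0.09 (SD, n = 3). KRT14 shares 10.2% and KRT8 10.0% of the 75-base windows of its longest transcript with transcripts of other genes, so their levels are uncertain to that extent. Below the first 4 came KRT19 (177 ± 2.17) and KRT80 (64.04 ± 3.08), and then a drop to KRT10 (18.3 ± 2.13), a keratin of differentiating cells. KRT6A, which marks activated keratinocytes, was at 3.57, 1.67 and 3.96, lowest in DMSO 2, and shares 26.2% of its windows with other genes. KRT13 and KRT4, the pair of non-cornified mucosa, were at 0.753 ± 0.184 and 2.10 ± 0.179. KRT1 and KRT2, keratins of cornifying skin, were undetected.

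The cornified envelope list was nearly empty. Of 39 genes 5 were measured, 26 were at trace level and 8 were undetected. Their median was 0.0325 CPM per kb, against 1.02 for all protein-coding genes. The kallikrein protease KLK5 was the exception at 71.6, 73.0 and 71.7, followed by the protease inhibitor CSTA (15.7 ± 1.28) and KLK10 (6.03 ± 0.255). The other measured genes were the transglutaminase TGM1 (0.754 ± 0.163) and filaggrin FLG (0.171 ± 0.0343). S100A9, at trace level because it fell under 1 CPM in DMSO 2 and DMSO 3, was at 2.59, 1.06 and 1.11, highest in DMSO 1, and CNFN was at 1.48 ± 0.410. IVL stood at 0.0513, 0.0473 and 0.0166 CPM per kb, which is 2, 2 and 1 counts. Loricrin (LOR) and SPRR3 were undetected.

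**Figure D3:**
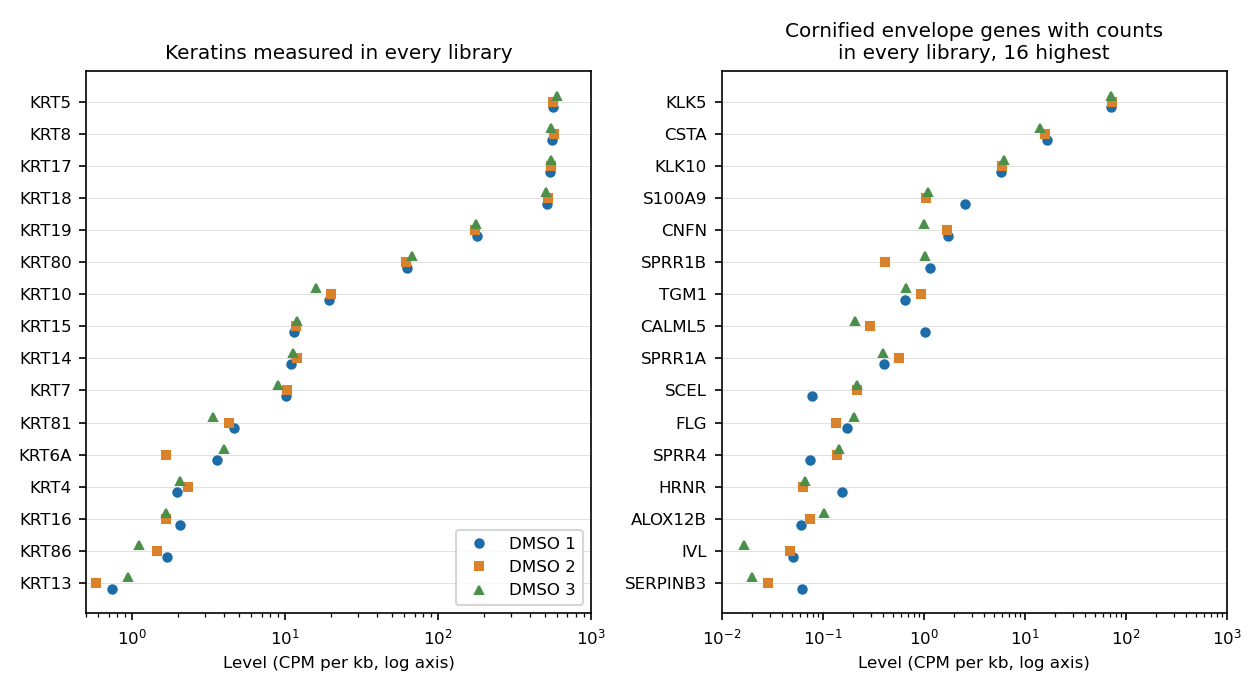
Level (CPM per kb, log axis) in each DMSO library of the 16 measured keratins (left) and of the 16 highest cornified envelope genes with counts in every library (right). KRT5, KRT8, KRT17 and KRT18 sit between 505 and 595, while most cornified envelope genes sit under 1.

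The transcription factors of squamous and surface epithelium were broadly present. Of 28 listed regulators 23 were measured, 3 were at trace level, and FOXN1 and ELF5 were undetected, with a median of 8.46. The highest were the splicing regulator ESRP1 (33.9, 33.8 and 35.7) and the factor KLF5 (26.4, 26.2 and 26.8). TP63 stood at 18.7, 17.9 and 19.6 CPM per kb, above BNC1 (17.5 ± 0.596) in every library although their ranges overlapped, and then came GRHL2 (15.8 ± 0.435). SOX2, which lies on the same chromosome arm as TP63 and is known to act with it, was at 3.10, 3.41 and 3.34. TP63 exceeded SOX2 by 5.70 times, a log2 ratio of 2.51 ± 0.11. ZNF750 and GRHL3, regulators of terminal differentiation, were at 0.222 and 0.118. Among all 1548 genes that the deposited table assigns to a transcription factor family, 1005 were measured (64.9%, against 58.0% of all nuclear protein-coding genes). The largest family, C2H2 zinc fingers, had 446 of 627 genes measured. Other large families had 37 of 44 (ZBTB), 36 of 48 (bZIP), 34 of 49 (HMG), 23 of 47 (forkhead), 91 of 191 (homeobox) and 36 of 101 (bHLH). Smaller families ranged more widely, from 9 of 9 MBD genes to 4 of 16 POU genes, 1 of 7 DM genes and 0 of 4 COE genes. Some AP-1 subunits, named for their high values, were prominent: FOSL1 was at 251, 249.7 and 288, FOS at 150.05, 162 and 207, JUNB at 126, 121 and 123 and JUN at 85.0, 84.9 and 96.5. The levels of other AP-1 subunits are not given here. FOS, together with the growth-induced factor EGR1 (86.8, 83.2 and 113), was highest in DMSO 3. ATF4, the factor of the amino acid stress response, was at 266 ± 5.27.

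Position along the body axis and in the pharynx is recorded by homeobox genes. Of 39 HOX genes 30 were measured and 36 had counts, with HOXB1, HOXD3 and HOXD4 undetected. HOXB7 led at 17.8, 16.5 and 16.9, ahead of HOXC10 (6.12 ± 0.427), HOXA10 (5.18 ± 0.418), HOXA3 (5.03 ± 0.633), HOXA11 (4.87 ± 0.412) and HOXA9 (4.31 ± 0.390). Among 28 PAX, TBX, PITX and related genes 16 were measured (57.1%, near the 58.0% of all nuclear protein-coding genes). PITX1 (12.1 ± 0.838), known from the oral ectoderm, and PAX9 (7.75 ± 0.276), known from the pharyngeal pouches, were the highest, followed among others by SIX4 (4.84 ± 0.532), MSX1 (4.57 ± 0.231) and EYA3 (3.69 ± 0.337).

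Genes of the contacts between epithelial cells and with the basement membrane were abundant. All 16 genes of hemidesmosomes and basal lamina contact were measured, with a median of 32.3 CPM per kb. The integrin chain ITGB1 was at 102, 109 and 104, the linker plectin PLEC at 83.2 ± 5.31, ITGB4 at 78.1, 75.4 and 81.6, ITGA3 at 75.6 ± 2.92, the laminin-332 chain LAMB3 at 73.0 ± 1.42 and COL17A1 at 46.6 ± 0.663. Of 26 integrin chains 17 were measured; ITGA6, the partner of ITGB4, was at 19.8 ± 0.610, ITGA2 at 16.1 ± 0.258 and the leukocyte integrin chain ITGB2 at 10.5, 10.4 and 10.1. Of 23 genes of adherens junctions and desmosomes 20 were measured, with a median of 32.4, led by PERP (158 ± 2.27), EPCAM (96.1 ± 3.83), plakoglobin JUP (70.6 ± 1.73), PKP3 (56.5 ± 3.36), DSG2 (54.5 ± 2.15) and PPL (49.7 ± 0.620). DSG2 was the main desmoglein, with DSG3 at 4.98 ± 0.326, DSG1 at 0.0929 and DSG4 undetected. E-cadherin CDH1 was at 28.9, 28.4 and 30.5, a level 3.78 times that of N-cadherin CDH2. Of 23 claudins only 6 were measured: CLDN7 (66.6 ± 1.83), CLDN4 (15.1 ± 0.655), CLDN1 (9.12 ± 0.468), CLDN12 (4.92 ± 0.391), CLDN15 (2.91 ± 0.301) and CLDN23 (1.49 ± 0.255).

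Mesenchymal genes were at unlike levels. Of 25 genes 18 were measured, with a median of 1.11 CPM per kb. Vimentin VIM, the intermediate filament of mesenchymal cells, was at 0.300, 0.227 and 0.173, and CDH1 was at 129 times its level. ZEB1 (0.123) and ZEB2 (0.00230), repressors of CDH1, were near 0. In contrast the repressor SNAI2 stood at 27.4, 26.1 and 30.3, TWIST2 at 15.5, 15.2 and 12.1 and TWIST1 at 4.57 ± 0.251. The hyaluronan receptor CD44 (44.6 ± 0.252) was the highest of the list. Fibroblast and pericyte markers were measured in 3 of 14 cases, ACTA2 (0.888 ± 0.144), COL1A1 and RGS5 (0.171 ± 0.0203), and 5 were undetected. Of 32 matrix proteases and inhibitors 21 were measured, led by urokinase PLAU (136, 136 and 130.0), MMP14 (59.2 ± 1.99), the matriptase ST14 (44.3 ± 1.88), TIMP1 (35.7 ± 3.18), the collagenase MMP1 (34.8 ± 2.35) and MMP3 (12.3 ± 1.83). MMP9 was at 0.0648 and MMP2 at 0.854.

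The small calcium-binding S100 proteins spanned abundant and absent members. Of 20 genes 10 were measured and 5 undetected. S100A11 (370.1, 361 and 358) and S100A2 (371, 355 and 362) overlapped, followed by S100A10 (240.2 ± 3.25), S100A6 (238 ± 23.5), S100A16 (215 ± 11.6) and S100A14 (139 ± 5.32). The inflammatory members S100A8 (0.0237) and S100A7 (0.0222) were close to 0.

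Receptor tyrosine kinases were led by an ephrin receptor, not by EGFR. Of 58 genes 28 were measured (48.3%, against 58.0% of all protein-coding genes), 26 were at trace level, and KIT, KDR, TEK and NTRK3 were undetected, with a median of 0.143 CPM per kb. EPHA2 was at 96.3, 95.7 and 97.2 CPM per kb. AXL, the receptor of GAS6, was at 65.6, 67.2 and 70.5, and EGFR (ENSG00000146648; chromosome 7, 55019021 to 55211628, plus strand) at 65.4, 62.6 and 64.8. AXL exceeded EGFR in each library by little, with a log2 ratio of 0.08 ± 0.06, while EPHA2 stood above both with no overlap. Next were the receptor of hepatocyte growth factor, MET (35.5, 35.7 and 34.0), the collagen receptor DDR1 (24.4 ± 0.331) and PTK7 (18.5 ± 0.350). ERBB2 stood at 10.97, 10.9 and 10.6, and the level of EGFR was 5.94 times as high, a log2 ratio of 2.57 ± 0.05. By the length of the longest transcript the gap was smaller, with EGFR at 81.2 and ERBB2 at 22.6. ERBB3 was at 3.67 ± 0.120 and ERBB4 at 0.0168. Among fibroblast growth factor receptors FGFR3 (4.74 ± 0.355) was above FGFR1 (0.606 ± 0.0175), and the receptors of platelet-derived growth factor, PDGFRA (0.00379) and PDGFRB (0.00952), were near 0.

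Ligands of the EGFR receptor family, the neuregulins (NRG) included, were present in the same cultures. Of 11 genes of such ligands 8 were measured and NRG3 was undetected. Epiregulin EREG was at 80.5, 82.3 and 72.4 and amphiregulin AREG at 75.4, 79.5 and 74.1, and their values overlapped. TGFA (15.4, 14.7 and 14.4), NRG1 (9.17 ± 0.157), HBEGF (6.93 ± 0.554) and BTC (1.44 ± 0.233) were lower, and EGF itself was at 0.0345. Of 45 other growth factors and antagonists 30 were measured. The highest were the FGF-binding protein FGFBP1 (77.3, 85.7 and 80.0), WNT7B (71.8, 70.2 and 69.6), the Wnt antagonist DKK1 (42.6 ± 2.03), the Notch ligand JAG2 (37.2 ± 0.187), TGFB1 (32.0 ± 3.15) and GDF15 (27.9 ± 2.39). HGF, the ligand of MET, was undetected, and so were IGF1, IGF2, FGF10 and WNT1. GAS6, the ligand of AXL, was at 2.58 ± 0.210. Of 29 receptors of the Notch, Wnt, Hedgehog, TGF-beta and BMP pathways 27 were measured, with FZD6 (43.3 ± 1.97), FZD2 (25.8 ± 1.89), LRP5 (19.5 ± 0.416), TGFBR2 (18.1 ± 0.745), NOTCH1 (10.9, 9.84 and 10.7) and NOTCH2 (9.96 ± 0.468) at the top.

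**Figure D4:**
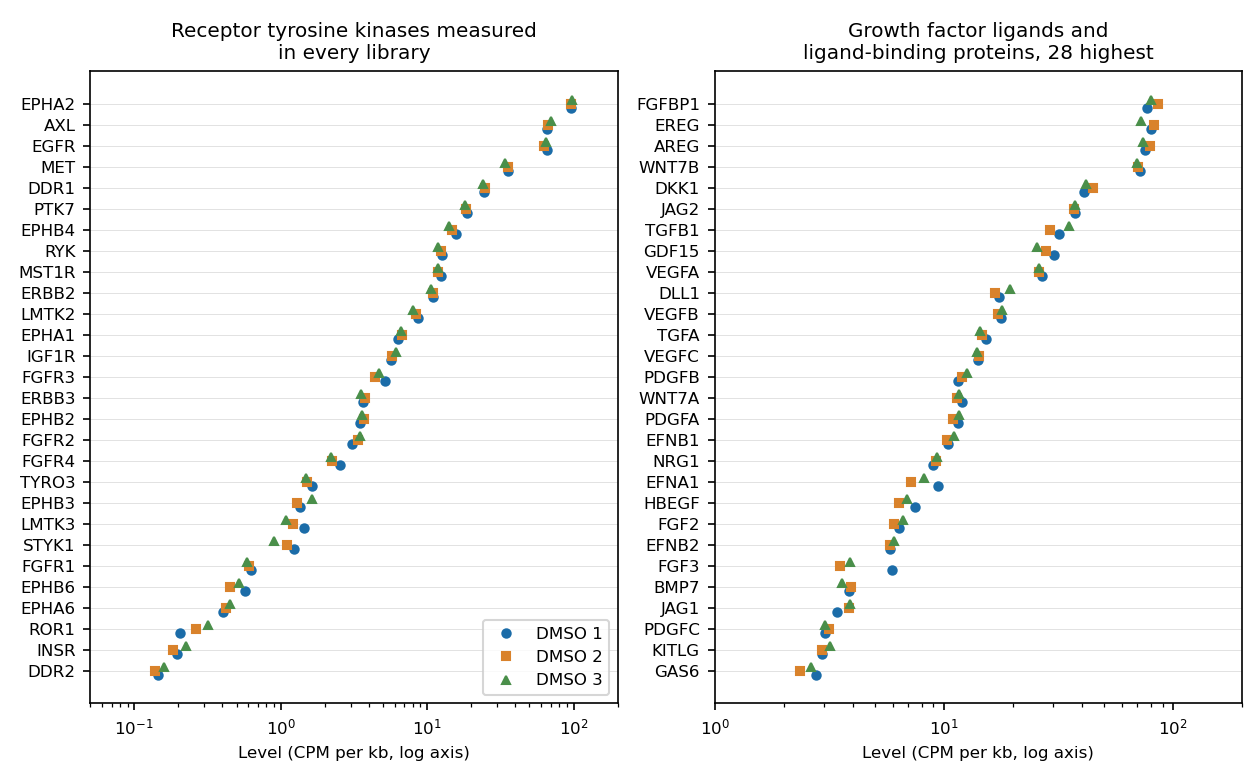
Level (CPM per kb, log axis) in each DMSO library of the 28 measured receptor tyrosine kinases (left) and of the 28 highest growth factor ligands and ligand-binding proteins (right). EPHA2, AXL and EGFR lead the receptors, and FGFBP1, EREG, AREG and WNT7B lead the ligands, all 4 between 69.6 and 85.7.

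Genes known as drivers of head and neck carcinoma spanned the whole range of levels. Of 33 oncogenes 31 were measured, with a median of 14.1 CPM per kb. The actin-binding protein cortactin CTTN (ENSG00000085733; chromosome 11, 70398404 to 70436584, plus strand) was the highest at 657, 644 and 666, rank 21 of the nuclear protein-coding genes. Cyclin D1 CCND1 (ENSG00000110092; chromosome 11, 69641087 to 69654474, plus strand) was at 288, 296 and 301, rank 76. RHOA (147 ± 2.19), MYC (111, 108 and 117), EGFR, FADD (63.5 ± 4.68) and YAP1 (62.4 ± 0.876) followed. MYCN, a relative of MYC, was at 0.00653. NFE2L2 was at 14.1 ± 0.387 and PIK3CA, the catalytic subunit of PI3 kinase, at 4.40, 4.24 and 4.46. Of 37 tumor suppressors 32 were measured, 3 were at trace level, and SMAD4 and CSMD1 were undetected, with a median of 8.19. B2M (107, 115 and 104) headed this list, with EPHA2, EP300 (29.3 ± 1.48), KEAP1 (27.4 ± 1.54) and SMAD3 (25.1 ± 0.891). RB1 was at 13.1, 12.3 and 13.2, FAT1 at 3.96, 3.89 and 3.78 and FHIT at 0.0348. CDKN2A was at 14.8, 14.1 and 13.1 and its neighbour CDKN2B at 1.32, 1.43 and 1.52. The level of CDKN2A depends on the gene model, and with the length of the longest transcript in place of the whole model it was 57.7 CPM per kb. RNA levels say nothing of mutations, which the table does not hold.

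CTTN and CCND1 lie in the same stretch of chromosome 11 (11q13), and the genes between them were looked at in order. Of 14 listed genes there 12 were measured. Between the genes CCND1 and CTTN, PPFIA1 was at 122, 123 and 124, FADD at 65.1, 67.1 and 58.2, LTO1 at 30.1, 30.1 and 29.9 and the chloride channel ANO1 at 15.3, 16.3 and 14.96. Genes on the other strand cover 59.2% of the exonic bases of FADD. The strand setting of the counting is not known, so the level of FADD is uncertain. FGF3 (5.96, 3.52 and 3.88) and FGF4 (2.22, 1.92 and 1.70), growth factors known from the embryo, had counts in every library as well, and FGF19 was at 0.316, 0.458 and 0.394. SHANK2, just beyond CTTN, was at 6.48 ± 0.0180, and MYEOV, just before CCND1, at 1.73 ± 0.0427. The levels rose and fell from gene to gene within the stretch and were not even. Copy number was not measured, and its part in these levels was not tested.

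A row of genes with no count was found around SMAD4, which passes on signals of TGF-beta and BMP receptors (ENSG00000141646; chromosome 18, 51028394 to 51085045, plus strand). It had 0 counts in all 3 libraries, which allows up to 0.00348 CPM per kb. Its neighbours MAPK4, MRO, ME2, ELAC1, AC091551.1 and MEX3C also had 0 counts in every library, so that 7 protein-coding genes in a row, from 50560078 to 51218304 of chromosome 18, gave none. The 5 other gene models inside this stretch had no count either. ME2 (a mitochondrial malic enzyme), ELAC1 (a tRNA-processing enzyme) and MEX3C (an RNA-binding protein) have CG-rich promoters. These hold 35, 33 and 27 CG pairs in 300 bases. Such promoters were found in 84.6% of the measured and 26.1% of the undetected genes with a known promoter. AC091551.1 overlaps both ELAC1 and SMAD4, and other genes cover 4.93% of the exonic bases of SMAD4 and 8.51% of those of ELAC1, but none of those of ME2 and MEX3C. On one side the nearest gene with counts was SKA1, a kinetochore protein, at 15.4, 17.6 and 14.6 CPM. On the other it was DCC, a trace gene at 0.0553, 0.153 and 0.107 CPM, followed by MBD2 at 54.3, 53.7 and 50.3 CPM. Other members of the pathway were measured, with SMAD3 at 26.0, 24.2 and 24.995, SMAD2 at 1.64, 1.57 and 1.64, TGFBR2 at 17.2, 18.7 and 18.3 and TGFBR1 at 2.97 ± 0.190. Whether the stretch is missing from the genome or silent cannot be told apart from RNA counts and was not tested. Of 17 listed genes beside SMAD4 and CDKN2A 10 were measured (58.8%, near the 58.0% of all nuclear protein-coding genes). Among them were MBD1 (6.42 ± 0.472), MTAP (5.86, 5.52 and 5.70), CXXC1 (5.07 ± 0.439), KLHL9 (4.14 ± 0.689) and FOCAD (2.43 ± 0.110). MTAP, the enzyme gene next to CDKN2A, had counts in every library.

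**Figure D5:**
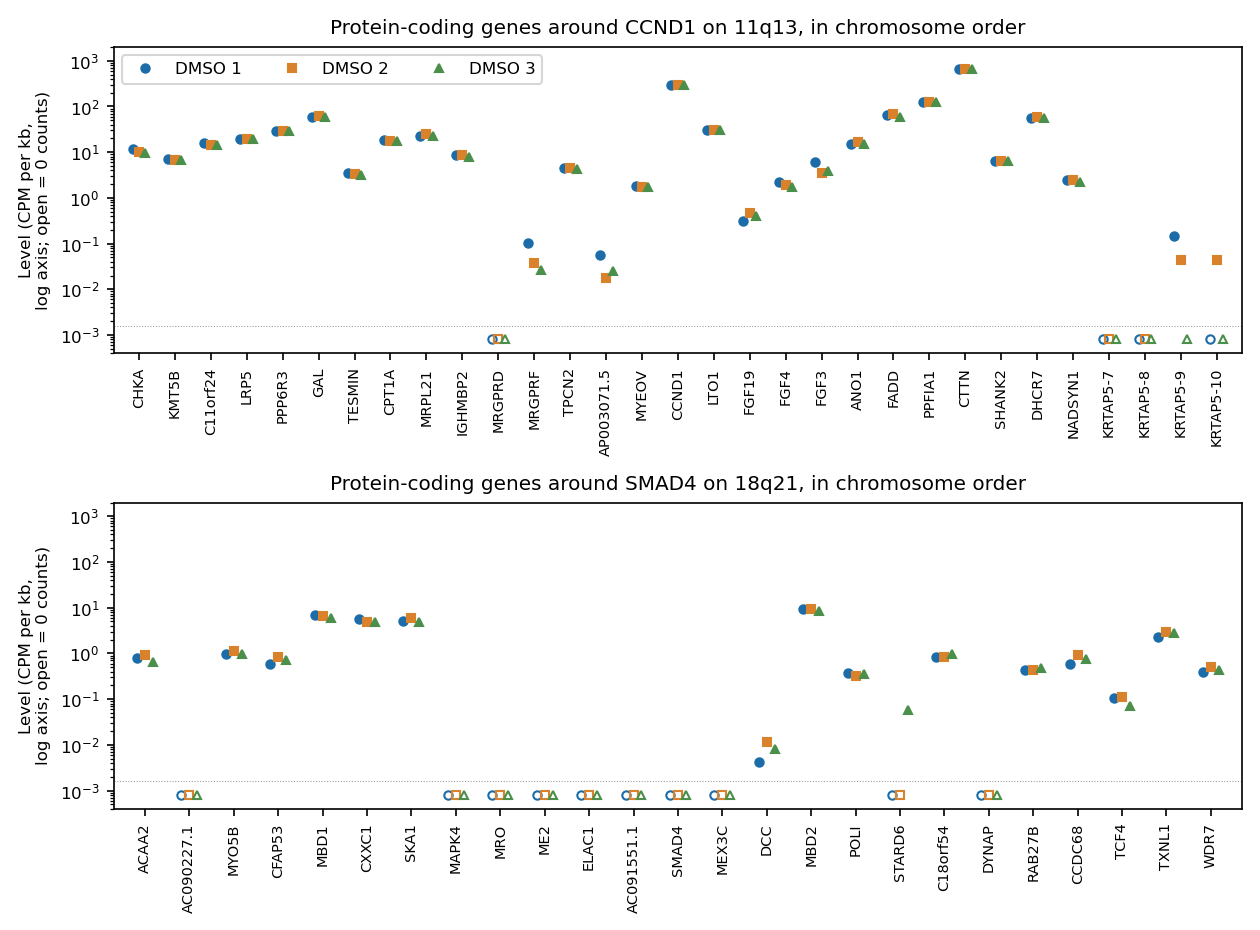
Level (CPM per kb, log axis) in each DMSO library of the protein-coding genes on both sides of CCND1 (top) and of SMAD4 (bottom), in chromosome order and evenly spaced; open symbols under the dotted line have 0 counts. CTTN (656) and CCND1 (295) stand out at the top, and the 7 genes from MAPK4 to MEX3C are all at 0 at the bottom.

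Rows of genes with no count were common. There were 115 rows of at least 5 adjacent protein-coding genes with no count on the autosomes and the X chromosome, which together held 1044 genes. In the median row the share of genes with a CG-rich promoter was 0%. There were 4 rows with 5 or more CG-rich promoters, a number that rows with fewer known promoters cannot reach. The row with SMAD4 just meets this number. The first, with 7 of 8 known promoters, was a set of 14 genes on chromosome 19 from 56375846 to 57167443, mostly zinc finger genes with the imprinted genes ZIM2 and PEG3. The second was the row with SMAD4, with 5 of 6. The third was the PRR20 gene copies with PCDH17 on chromosome 13, and the fourth a MAGEA and CSAG row on chromosome X, both of which hold near-identical copies. Rows with fewer CG-rich promoters also held widely used genes. One of 12 genes on chromosome X, from 55623400 to 57910820, included UBQLN2, which carries proteins to the proteasome, and RRAGB, a GTPase of amino acid sensing, and had 3 CG-rich promoters of 11 known. Of the 13 other gene models inside it 2 had counts. Chromosome 18 had 23.4% of its 269 protein-coding genes undetected, less than chromosomes 21 (35.9%), X (35.4%) and 11 (30.0%) and more than the 19.3% of all.

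The cell cycle was represented by nearly all its parts. All 32 proliferation markers were measured, with a median of 57.3 CPM per kb, against 6.07 for measured protein-coding genes. Thymidine kinase TK1 was at 304, 307 and 296, the histone H2AFZ at 249 ± 10.3, the tubulin TUBA1B at 247 ± 7.07, the anaphase activator CDC20 at 193 ± 8.73, UBE2C at 169 ± 8.96 and the replication clamp PCNA at 136 ± 7.22. MKI67, the common proliferation antigen, was at 38.9, 37.7 and 39.2. Of 25 cyclins 23 were measured. CCND1 stood 14.96 times above CCND2 (19.7 ± 0.650) and 26.7 times above CCND3 (11.04 ± 0.312). The mitotic cyclins CCNB1 (165, 171 and 159), CCNB2 (48.3 ± 0.875) and CCNA2 (47.2 ± 1.44) came next, ahead of CCNG1 (34.9 ± 0.176) and CCNI (32.6 ± 0.611). The cyclins of S-phase entry were lower, with CCNE1 at 6.53 ± 0.169 and CCNE2 at 3.12 ± 0.442.

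Of 21 cyclin-dependent kinases 19 were measured and CDK15 was undetected, with a median of 7.59 CPM per kb. CDK4, a partner of D cyclins, was at 58.1, 58.8 and 51.5, and CDK6, its relative, at 10.1, 9.52 and 10.6, a ratio of 5.57. The mitotic kinase CDK1 was at 48.5, 49.9 and 49.3. CDK7 (ENSG00000134058; chromosome 5, 69234795 to 69277430, plus strand) stood at 30.7, 34.2 and 30.3, rank 1454 of the nuclear protein-coding genes, and overlapped CDK2 (31.1, 30.4 and 30.7). CDK9, the kinase of transcription elongation, was at 21.5, 20.5 and 20.2 and CDK16 at 18.8 ± 0.584. The partners of CDK7 were lower, with MNAT1 at 11.4, 12.8 and 11.9 and CCNH at 5.10, 5.46 and 5.57. CDK7 exceeded CCNH by a log2 ratio of 2.56 ± 0.11 and MNAT1 by 1.40 ± 0.05, in all 3 libraries and with no overlap. These ratios rest on the gene models: with the length of the longest transcript CDK7 was at 52.7, MNAT1 at 17.6 and CCNH at 13.7 CPM per kb.

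All 17 inhibitors and regulators of these kinases were measured. The phosphatase CDKN3 (40.5 ± 2.91), the CDK1 kinase PKMYT1 (31.9 ± 1.33) and the phosphatase CDC25B (26.7 ± 0.823) led, followed by CDKN1B (24.2, 24.8 and 24.3). The CDK inhibitor CDKN1A was at 11.3, 11.9 and 12.4, overlapping RB1, and CDKN1C at 0.592 ± 0.114. Of 31 stress response and apoptosis genes 30 were measured. BIRC5 (106 ± 0.838) and MCL1 (92.5 ± 4.25) were the most abundant inhibitors of cell death. The listed genes FADD, BAX (42.3 ± 0.880), BIK (38.1 ± 1.59) and BCL2L1 (29.5 ± 1.29) were lower, and of these only BCL2L1 is such an inhibitor. BCL2 was at 0.357, 0.407 and 0.352 and BCL2A1 at 0.0109. The ubiquitin ligase MDM2 was at 4.90 ± 0.166.

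Surface proteins that existing antibody drugs bind were measured in 23 of 30 cases. Tissue factor F3, the starter of blood coagulation, was by far the highest at 553, 559.8 and 553 CPM per kb, which overlapped the values of KRT8. EPCAM, the transferrin receptor TFRC (80.5 ± 1.71), AXL and EGFR were also among the highest. NECTIN4 was at 1.82 ± 0.188, FOLR1 at 0.116, and CEACAM5 and SLC34A2 were undetected.

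Genes of antigen presentation, checkpoint ligands and other immune regulators were listed together. Of these 35 genes 22 were measured, 7 were at trace level and 6 were undetected. HLA-C was at 275, 277 and 255, B2M at 109 ± 5.82, HLA-E at 75.7 ± 2.15 and the peptide-loading protein TAPBP at 34.6 ± 3.71. Class I was not even, with HLA-F at 0.818 ± 0.142 and HLA-G undetected. Since alleles of the class I genes differ from the reference, their counts are uncertain. Of the class II genes HLA-DRA, HLA-DRB1, HLA-DQA1 and HLA-DPA1 were undetected, with the class II activator CIITA at 0.0470. The checkpoint ligand CD274 (PD-L1) was at 2.25, 1.97 and 2.22, and PVR, the poliovirus receptor, at 25.5 ± 0.311. Of 46 cytokines and chemokines 14 were measured, with a median of 0.102: the neutrophil attractant CXCL8 (44.3, 44.04 and 46.0) overlapped LIF (44.7, 45.3 and 44.05), and CXCL1 (34.4 ± 1.56), IL1B (23.9 ± 0.750), IL1A (21.4 ± 0.298) and IL24 (15.5 ± 0.0643) followed. The interferon-induced chemokines CXCL9 and CXCL10 were undetected.

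Isozymes of metabolic enzymes were at unlike levels. Of 32 glycolysis genes 22 were measured, with GAPDH at 1352, 1322 and 1332, TPI1 at 398 ± 11.9, ENO1 at 397 ± 12.3, PKM at 375 ± 1.34, PGAM1 at 243 ± 6.21 and LDHA at 194 ± 2.29. LDHA exceeded LDHB 4.56 times, and the glucose carrier SLC2A1 (81.2 ± 3.94) exceeded SLC2A3 134 times. The liver form PKLR was at 0.0129, and the germ cell forms PGK2 and LDHC were undetected. ALDOA had only 5.60, but 42.8% of its exonic bases are covered by another gene on the same strand and 48.5% of its windows are shared, so this value is uncertain. It was named after its value was seen. Of 30 NRF2 targets and drug-metabolizing genes 19 were measured. GSTP1 (1036, 1002 and 993) led by far, ahead of NQO1 (143 ± 3.33), ALDH1A3 (107 ± 2.65), TXNRD1 (83.9 ± 2.23) and AKR1B1 (57.1 ± 2.83). GSTM1, GSTA1 and CYP3A4 were undetected, and AKR1B10, another NRF2 target, was at 0.1003. Of 12 drug efflux pumps 7 were measured (58.3%, near the 58.0% of all nuclear protein-coding genes). ABCC1 was at 17.2, 16.3 and 17.1, ABCC5 at 3.84 ± 0.160, ABCC10 at 2.57 ± 0.0906, and ABCB1 (P-glycoprotein) at 0.143, 0.0965 and 0.184. All 13 mitochondrially encoded mRNAs were measured, led by MT-CO2 at 4300.0, 3622 and 5207. DMSO 3 was the highest library for MT-CO2, MT-CO1 (3796, 3439.6 and 4283) and MT-CO3 (3663, 3338 and 4326).

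Nuclear receptors were measured in 26 of 48 cases (54.2%, against 58.0% of all nuclear protein-coding genes). NR2F6 (36.5, 32.3 and 26.4) and the retinoic acid receptor RARG (28.5, 28.2 and 27.9) overlapped, with NR1H2 (27.3 ± 0.805), ESRRA (24.9 ± 2.11), RXRA (21.3 ± 0.625) and NR2F2 (17.0 ± 1.66) next. The vitamin D receptor VDR was at 13.4 ± 0.102 and the glucocorticoid receptor NR3C1 at 12.2 ± 0.390. The oestrogen and progesterone receptors were close to 0, with ESR1 at 0.128, 0.143 and 0.147 and PGR at 0.000772.

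The germline and other lineages left few transcripts, with marked exceptions. Of 33 cancer-testis genes 26 were undetected and 3 were measured: MAGEA4 at 76.7, 71.3 and 67.6, PRAME at 6.02, 5.25 and 5.80 and ACTL8 at 0.771, 0.929 and 0.938. MAGEA4, an antigen otherwise known from germ cells, was thus above EGFR per kb of gene model. This order rests on the gene models. By the length of its longest transcript EGFR was at 81.2 CPM per kb. The value of MAGEA4 by that length is not given here, so no order by that length is stated. The close relatives of MAGEA4, which are MAGEA3, MAGEA6, MAGEA2 and MAGEA12, were listed at 0. These share near-identical sequence, so that reads matching several of them may not have been counted. Of 17 leukocyte markers 10 were undetected, and besides CD14 only the actin-bundling protein LCP1 was measured, at 14.4, 15.8 and 15.6. Of 11 endothelial markers EGFL7 (10.4, 9.58 and 8.92) and CDH5 were measured. Of 13 neural and neuroendocrine markers only ENO2 (7.19 ± 0.776) and NCAM1 (0.162 ± 0.0219) were, and of 12 melanocyte and muscle markers only PMEL (0.487 ± 0.121) and MITF (0.315 ± 0.0701). Of 25 markers of other epithelia and liver 9 were measured, among them FOXA1 (9.10, 8.39 and 8.91), GATA4 (3.74, 3.44 and 3.85), UPK2 (2.97 ± 0.383) and GATA6 (2.71 ± 0.411). Of 11 pluripotency and blood markers only POU5F1 was, at 0.420, 0.369 and 0.382, with 21.9% of its windows shared with other genes.

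Long noncoding RNAs took 0.882 ± 0.0259% of the counts, and 784 of 14994 were measured. By CPM, which is not corrected for length, the 5 highest were NEAT1 (600.3, 547 and 581), AL161431.1 (447, 435 and 524), NORAD (329.7, 335 and 325), LRRC75A-AS1 (266, 271 and 294) and MALAT1 (297, 244 and 211). MALAT1 was lowest in DMSO 3. Per kb the highest of the 26 listed RNAs, of which 20 were measured, were NORAD (61.8 ± 0.946), SNHG5 (51.5 ± 4.15), DANCR (44.4 ± 1.40), GAS5 (37.5 ± 2.16), MALAT1 (28.4 ± 4.89) and MIR205HG (27.5 ± 0.856), the host of a microRNA known from squamous cells. Since the RNA was selected by its poly(A) tail, RNAs without one are reported only as far as they were carried over. RN7SL2 and RN7SL3 were the only measured ones of 6 such RNAs, and RN7SL1, RN7SK, RMRP and RPPH1 were listed at 0. RN7SL2, RN7SK and RPPH1 share 100% of their windows with other genes, RN7SL1 77.3% and RN7SL3 21.8%. Their levels, the values of 0 included, are therefore uncertain. All 14 reference genes were measured, with GAPDH the highest.

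The 3 cultures differed little. Over the 9114 genes that averaged 10 CPM or more, the highest library was 1.09 times the lowest in the median and 1.25 times at the 95th percentile, and the biological coefficient of variation was 5.66%. Only 36 genes exceeded 1.5 times and 12 exceeded 2 times. Without DMSO 3 the number over 1.5 times was 10, without DMSO 1 it was 19 and without DMSO 2 it was 26. DMSO 3 was the library farthest from the median in 21 of the 36, DMSO 1 in 13 and DMSO 2 in 2. The 10 largest ratios belonged to BOLA2B (2.32, 64.7 and 2.28 CPM), RN7SL3, RN7SL2, EIF3CL (66.0, 10.6 and 10.1), SMN1 (83.7, 18.95 and 32.1), U2AF1 (6.30, 7.85 and 22.1), TAX1BP3 (21.8, 21.3 and 8.32), the pseudogene AC004057.1 (19.3, 7.59 and 9.49) and a pair of unnamed predicted genes. Of the 36 genes 33 could be looked up, and 21 of these share more than 20% of their windows with other genes. The same share among all genes is not given here, so whether 21 is more than usual was not tested.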

How the data were processed

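RNA of FaDu cells was sequenced by the authors as paired-end, poly(A)-selected libraries. Per the labels and the study's methods, reads were aligned to GRCh38 with HISAT2 and counted per gene with featureCounts 2.0.6. The annotation release and the strand setting are not given in the sources used here, so antisense and overlapping genes are uncertain, and near-identical copies may be under-counted. The authors deposited raw counts per gene for 58929 rows, together with gene lengths and transcription factor families. The columns of the 6 treated libraries were not used.

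Counts of the 3 DMSO libraries were scaled to the sum of all counts (CPM) and divided by the deposited gene length (CPM per kb), which is the length of the whole gene model and therefore lowers genes with long models. The 194 unnamed predicted genes held 0.125 to 0.205% of the counts. Levels are given as mean and SD. No test was run, since an exact paired permutation test over 3 libraries cannot go below p = 0.25. The biological coefficient of variation came from edgeR 4.0.16 in R 4.3.3, whose script was tested on simulated data, and other scalings from edgeR and DESeq2 1.42.0. Other steps used Python 3.11.15. Overlap of exons and shared 75-base windows were taken from GENCODE 44 on GRCh38, and promoters from RefSeq on GRCh38.p14. Protein length was planned and is not analysed here.

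The members and the 44 gene lists were chosen with earlier results of these data known. Genes named were the 20 most abundant nuclear protein-coding genes, up to 6 of the highest of each list, the undetected members of lists with 5 or fewer, a set of lineage, driver, receptor and cell cycle genes whatever their values, the 10 genes with the largest ratio between libraries and the 5 most abundant long noncoding RNAs. Further genes were named after their values were seen: other list members, the genes around CCND1 and SMAD4 and in other rows without counts, and the transcription factors FOS, FOSL1, JUN, JUNB, EGR1 and ATF4. Alternatives were other thresholds, scalings and lengths and leaving out each library. Some genes that the naming rule covers are not reported here.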

Additional observations from a re-analysis of the deposited data

How the results depend on the processing

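No paired analysis was possible because all 3 libraries belong to 1 group and no groups were compared. The number of genes measured, 13021 over all rows, lay between 11098 (1 CPM per kb) and 14283 (0.5 CPM) under the other thresholds, scalings and filter, and between 13168 and 13181 without 1 library. The 100 most abundant genes held 18.3% without mitochondrial, 7SL and 7SK genes and 31.4% as a share of CPM per kb, and 19.2 to 19.7% without 1 library. Mitochondrially encoded genes held 12.7% as a share of CPM per kb, and 2.66 to 3.14% without 1 library. These shifts follow from the other denominators. The highest member stayed the same in 44 of 44 lists under TPM, TMM scaling and without mitochondrial, 7SL and 7SK genes, and in 43 to 44 without 1 library. It stayed in 35 with the length of the longest transcript, where KRT8, ITGA3 (in both of its lists), S100A2, AREG, WNT7B, CDK1, PKMYT1 and RARG came first. Of 39 genes named whatever their values, that length moved 15 by over 1.5 times, from 0.807 times (MYC) to 4.12 times (CDKN2A). The following alternatives were chosen after the data were seen. Genes over 1.5 times between libraries, 36, numbered 36 with TMM and 35 with DESeq2 size factors, and 10 to 26 without 1 library, where fewer libraries are compared. The share of measured genes with a CG-rich promoter was 83.6% at 0.5 CPM, 85.9% at 2 CPM and 84.5 to 84.6% without 1 library. Depth limits levels near the floor, where a gene such as PECAM1 rests on a few counts.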

Other observations

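Genes with a near-identical copy held several of the largest differences between libraries, and the summed counts of gene and copy were looked at after the values were seen. CCZ1 and CCZ1B summed to 49.5, 53.3 and 48.3 CPM, a ratio of 1.10 between the highest and the lowest library, while CCZ1 alone had 1.87. EIF3CL with EIF3C had a ratio of 1.72 against 6.53 for EIF3CL alone, and SMN1 with SMN2 2.72 against 4.42 for SMN1 alone. The sum of BOLA2B and BOLA2 was hardly more even than BOLA2B alone, with 26.1 against 28.3, and stood at 2.49, 64.9 and 2.61 CPM. The sum of CBS and CBSL was less even than CBS alone, with 2.58 against 2.36. An unnamed predicted gene on a sequence outside the assembled chromosomes was at 1091, 817 and 307 CPM. The cause of these differences was not tested.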
